A study of Mus musculus with 4 samples.

Results

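H3K4me3 and H3K27me3 were set directly against each other, read for read, in the mouse fibroblast line MDER 10T, whose MyoD1 is estrogen-inducible per the series title. The comparison used 2 of the 4 libraries of the series, the one precipitated with an H3K4me3 antibody and the one precipitated with an H3K27me3 antibody, chosen by their labels. Whole-cell extract (WCE, chromatin sequenced without immunoprecipitation) and the H3K9me3 library took no part in the calls and serve only as further readouts. All cells were grown in phenol red-free DMEM/F12 medium that contained 10% FCS, and the labels name no estrogen treatment, no differentiation step and no clone. Each group holds 1 library, so there is no replicate check, and every test below compares the reads of these libraries and not conditions.

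H3K4me3 is laid down by the MLL and SET1 complexes of the Trithorax group and marks the starts of active or poised genes. H3K27me3 is laid down by Polycomb repressive complex 2 and covers silent developmental regulators, often over long domains. The activities oppose each other, since demethylases of one mark travel with writers of the other. Places where one mark gives way to the other can be borders between active and Polycomb-silenced chromatin. In some cells both marks meet on the same promoters, a state called bivalent.

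The autosomes held 3086567 H3K4me3 reads and 2933567 H3K27me3 reads, after reads that shared a position and strand were counted once. Each read was moved 60 bp along its strand and counted in tiles of 4 kb and of 100 kb. In each tile an exact binomial test asked whether the H3K4me3 share of the reads differed from its share of the autosomal totals. Calls required p under 0.05 after Benjamini-Hochberg adjustment, together with a ratio, scaled to equal totals, of at least 2 in 4 kb tiles and 1.5 in 100 kb tiles. Positions are mm8 and are written as counted from 1; whether the deposited read positions count from 0 or 1 is not stated. An annotation of that build was not used here, so regions are named by position and not by gene. For the same reason fibroblast and muscle marker genes could not be checked.

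At 4 kb the marks divided the called genome into nearly equal parts that differed in read density. Of 533927 tiles tested, 14087 (2.64%) were higher in H3K4me3 and 13712 (2.57%) were higher in H3K27me3. The H3K4me3-higher tiles held 43.0% of all H3K4me3 reads and 4.95% of H3K27me3 reads, and their pooled H3K4me3 to H3K27me3 ratio was 8.69 (95% exact interval 8.64 to 8.74). The H3K27me3-higher tiles held 11.2% of H3K27me3 reads and 1.87% of H3K4me3 reads, and H3K27me3 was 5.97-fold higher there (5.92 to 6.03). The median H3K4me3-higher tile had 82 H3K4me3 and 9 H3K27me3 reads, while the median H3K27me3-higher tile had 21 H3K27me3 and 3 H3K4me3 reads. Intervals cover counting error only, since amplified reads carry no molecular identifiers and may repeat a molecule, and tiles called for a high ratio have a high ratio by that choice.

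**Figure D1:**
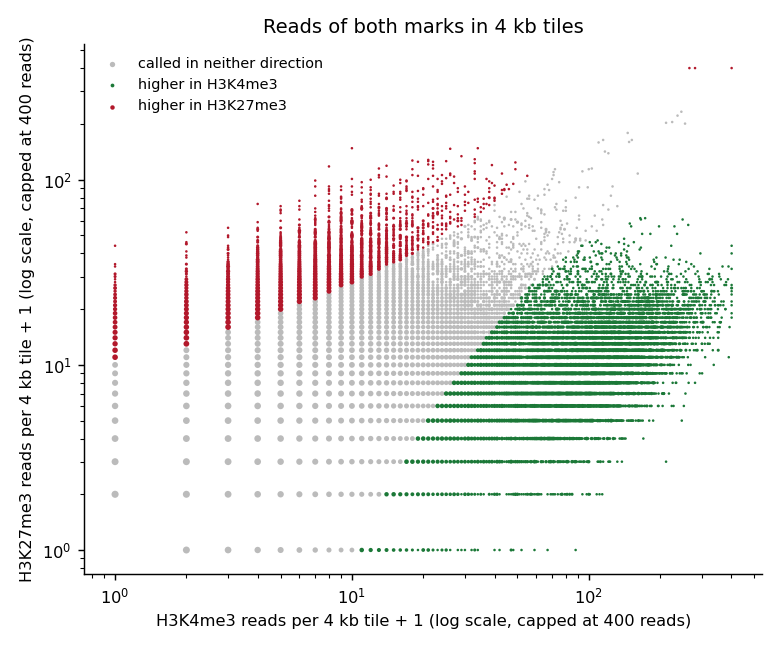
Reads of H3K4me3 (horizontal) and H3K27me3 (vertical) in 4 kb tiles, on log axes with 1 read added and values capped at 400 reads; each point is a pair of counts, larger where more tiles share it. Called tiles form separate wings, and the H3K4me3 wing reaches far higher counts than the H3K27me3 wing.

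The number of H3K27me3-higher tiles rested on the scaling. H3K4me3-higher tiles held 43.0% of H3K4me3 reads, tiles called in neither direction held 55.1% of them and 83.9% of H3K27me3 reads, and the latter tiles had a pooled H3K4me3 to H3K27me3 ratio of 0.657 and not 1. When those tiles were taken as the zero level, which moves every log2 ratio by 0.61 toward H3K4me3, 17940 tiles were higher in H3K4me3 and 3081 in H3K27me3. H3K27me3-higher tiles then made up 14.7% of called 4 kb tiles in place of 49.3%. At 100 kb their share fell from 69.2% to 30.2%. This second scale is called the background scale below. Ratios to WCE were also scaled by autosomal totals, so they share that part of the scaling. H3K4me3 was 6.21 times WCE in H3K4me3-higher tiles (6.18 to 6.24) and 0.483 times WCE in H3K27me3-higher tiles (0.478 to 0.488). H3K27me3 was 2.89 times WCE in H3K27me3-higher tiles (2.87 to 2.91) and 0.714 times WCE in H3K4me3-higher tiles (0.710 to 0.719). In tiles called in neither direction, H3K4me3 was 0.632 times and H3K27me3 0.962 times WCE. Relative to those tiles, H3K4me3 over WCE was 9.82-fold higher in H3K4me3-higher tiles, and H3K27me3 over WCE was 2.999-fold higher in H3K27me3-higher tiles. Of the H3K27me3-higher tiles, 79.2% had H3K27me3 at least 2-fold above WCE, and 63 of 13712 had it at or below WCE. Of the H3K4me3-higher tiles, 94.4% had H3K4me3 at least 2-fold above WCE.

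The H3K4me3-higher tiles with the largest ratios had almost no H3K27me3 reads. On chromosome 13 from 73096001 to 73100000, 211 H3K4me3 reads faced 2 H3K27me3 reads (ratio 100.3, interval 27.4 to 833; adjusted p 1.73e-54, exact binomial). H3K9me3 had 20 reads and WCE 5 in that tile. On chromosome 16 from 87588001 to 87592000, 87 H3K4me3 reads faced 0 H3K27me3 reads, at least 27.6-fold higher against a floor of 3 reads in the tile; the exact 95% lower bound, which also counts the error of the 87 reads, was 21.9. On chromosome 3, the tiles from 96684001 and from 58500001 held 113 and 110 H3K4me3 reads against 1 H3K27me3 read each, ratios of 107 (18.9 to 4279) and 105 (18.4 to 4166). Among the 10 tiles of this kind named by rule, the H3K4me3 level was 3.73 to 40.7 times WCE. The wide intervals come from the small number of H3K27me3 reads.

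The named H3K27me3-higher tiles had no H3K4me3 read at all. The first, on chromosome 7 from 24884001 to 24888000, held 43 H3K27me3, 0 H3K4me3, 9 H3K9me3 and 10 WCE reads. Against the floor, H3K27me3 was at least 15.1-fold higher (exact 95% lower bound 11.7; adjusted p 5.32e-12, exact binomial). On chromosome 2 from 180816001 to 180820000 the counts were 34 H3K27me3, 0 H3K4me3 and 5 WCE reads, at least 11.9-fold higher (lower bound 9.18). On chromosome 14 from 69268001 to 69272000 they were 27 H3K27me3, 0 H3K4me3 and 2 WCE reads, at least 9.47-fold higher (lower bound 7.19). Across the 10, H3K27me3 ran from 26 to 43 reads and from 2.10 to 13.7 times WCE. Of the 13712 H3K27me3-higher tiles, 1371 had 0 H3K4me3 reads, which at these totals allows up to 3 reads in each. Conversely 115 of 14087 H3K4me3-higher tiles had 0 H3K27me3 reads. Among the 506128 tiles called in neither direction, 77156 had 0 H3K4me3 reads and 34733 had 0 H3K27me3 reads. Those tiles held few reads, with medians of 2 H3K4me3 and 4 H3K27me3 reads. A tile without reads of one mark was thus not particular to the called tiles.

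Some tiles carried both marks at similar levels and so were called in neither direction. In 559 such tiles each mark had at least 20 reads and was at least 2-fold above WCE. A further 173 H3K4me3-higher tiles had H3K27me3 raised to that degree, and 60 H3K27me3-higher tiles had H3K4me3 raised to that degree. Pooled reads do not show whether both marks sat on the same chromosomes. A few tiles with very many reads in every library were a separate case. On chromosome 17 from 39452001 to 39456000 there were 2697 H3K27me3, 1144 H3K4me3, 2189 H3K9me3 and 2020 WCE reads, and it was called H3K27me3-higher (2.48-fold) with H3K27me3 at 1.36 times WCE. Both its neighbours were called as well, with H3K27me3 at 1.11 and 1.26 times WCE. None of these 3 tiles was part of a switch point.

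Called tiles of one direction often lay near each other. They were joined into a block when they followed one another with at most 20 kb of uncalled sequence between and no opposite call. H3K4me3-higher tiles formed 8199 blocks with a mean span of 10.3 kb, and H3K27me3-higher tiles formed 5534 blocks with a mean span of 17.0 kb. Single tiles made up 60.6% of H3K4me3 blocks and 58.0% of H3K27me3 blocks. The difference lay in the long blocks. Blocks of at least 5 called tiles held 44.8% of H3K27me3-higher tiles and 14.9% of H3K4me3-higher tiles. Read counts of a block are given below over its whole span, uncalled tiles included. The longest H3K4me3 block spanned 168 kb of chromosome 8 (87524001 to 87692000), with 20 called tiles of 42, 3175 H3K4me3 reads and 658 H3K27me3 reads. The longest H3K27me3 block spanned 412 kb of the same chromosome (123568001 to 123980000), with 75 called tiles of 103, 3691 H3K27me3 reads and 970 H3K4me3 reads.

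A switch point was defined as a pair of successive called tiles of opposite direction with at most 20 kb between them. There were 2190 on the autosomes. With rising coordinate, 1108 ran from H3K4me3 to H3K27me3 and 1082 from H3K27me3 to H3K4me3. The called tiles adjoined at 310 switch points (14.2%). At the other switch points the number declined with distance, from 449 with 4 kb between to 317 with 20 kb between. Tiles at a switch point were a minority of the calls, 14.6% of H3K4me3-higher and 14.6% of H3K27me3-higher tiles.

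Immediate neighbours rarely differed in mark. Of 7617 pairs of called tiles that adjoined, 4.07% had opposite directions. The share rose to 16.5% of pairs with 4 kb between, 21.3% with 8 kb, 23.2% with 12 kb, 26.6% with 16 kb and 27.6% of 1150 pairs with 20 kb between. The 5312 tiles that lay between the called tiles of switch points had a median of 5 H3K4me3 and 10 H3K27me3 reads. Over these tiles H3K4me3 was 0.885 times WCE (0.873 to 0.897) and H3K27me3 lay between 1.38 and 1.42 times WCE (95% interval). Relative to all tiles called in neither direction, H3K4me3 over WCE was 1.4 times and H3K27me3 over WCE 1.46 times as high there, so both marks lay above their uncalled level.

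**Figure D2:**
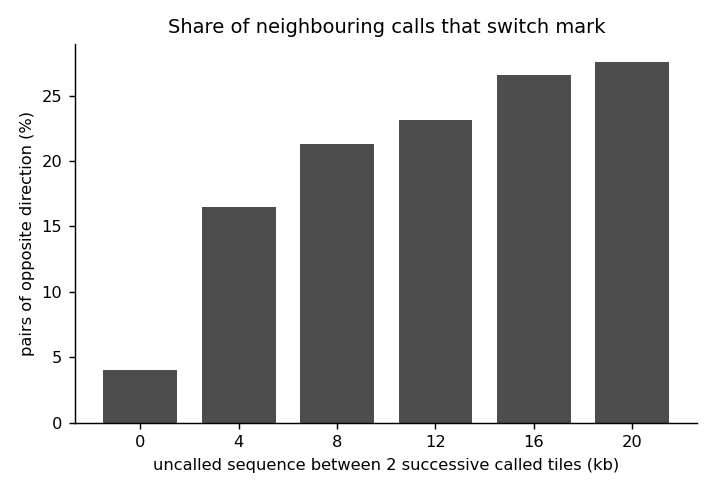
Share of successive called 4 kb tiles with opposite directions (vertical, percent) against the uncalled sequence between them (horizontal, kb). Bars rise from 4.07% of adjoining pairs to 27.6% of pairs with 20 kb between.

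Where the called tiles adjoined, both marks changed within a few kb. At these 310 switch points H3K4me3 density was 10.6 reads per kb per switch point, after scaling to reads per 1000000 autosomal reads, at 2 to 3 kb before the border. It was 8.07 and 2.96 in the last bins before the border and 0.392 in the first bin after it. H3K27me3 over WCE was 1.04 at 1 to 2 kb before the border, 1.47 in the last bin before it and 2.58 in the first bin after it. Its density went from 1.77 at 0 to 1 kb to 2.10 at 3 to 4 kb after the border and was 1.75 at 4 to 5 kb. The profile over all switch points mixes intervals of 0 to 20 kb, which spreads both changes. With all switch points aligned at the middle of the interval between the called tiles and turned so that the H3K4me3 side came first, H3K4me3 density was 4.11 on the same scale at 4 to 5 kb before the middle. It was 1.76 at 1 to 2 kb before the middle and 0.508 at 1 to 2 kb after it. H3K27me3 density was 0.988, 1.02 and 1.16 in the same bins, and reached 1.56 at 8 to 9 kb after the middle. Relative to WCE, H3K27me3 was 0.953 (0.936 to 0.970) at 4 to 8 kb on the H3K4me3 side, 1.81 (1.78 to 1.85) at 0 to 4 kb and 2.18 (2.14 to 2.22) at 4 to 8 kb on the H3K27me3 side. H3K4me3 relative to WCE was 4.12 (4.07 to 4.18), 0.735 (0.719 to 0.752) and 0.743 (0.726 to 0.760) in these zones. The tiles that define a switch point fix this pattern near the middle. At 20 to 50 kb, beyond the tiles that define it, H3K27me3 was 1.53 times WCE (1.52 to 1.54) on the H3K27me3 side and 1.10 times WCE (1.09 to 1.105) on the H3K4me3 side. H3K4me3 there was 1.46 times WCE on the H3K27me3 side and 1.63 times on the H3K4me3 side, so the sides differed less for H3K4me3 than for H3K27me3. Other called tiles lie in these outer zones. Windows around neighbouring switch points overlap, so some reads were counted more than once, also on opposite sides. The intervals treat them as separate reads and are too narrow for that reason.

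**Figure D3:**
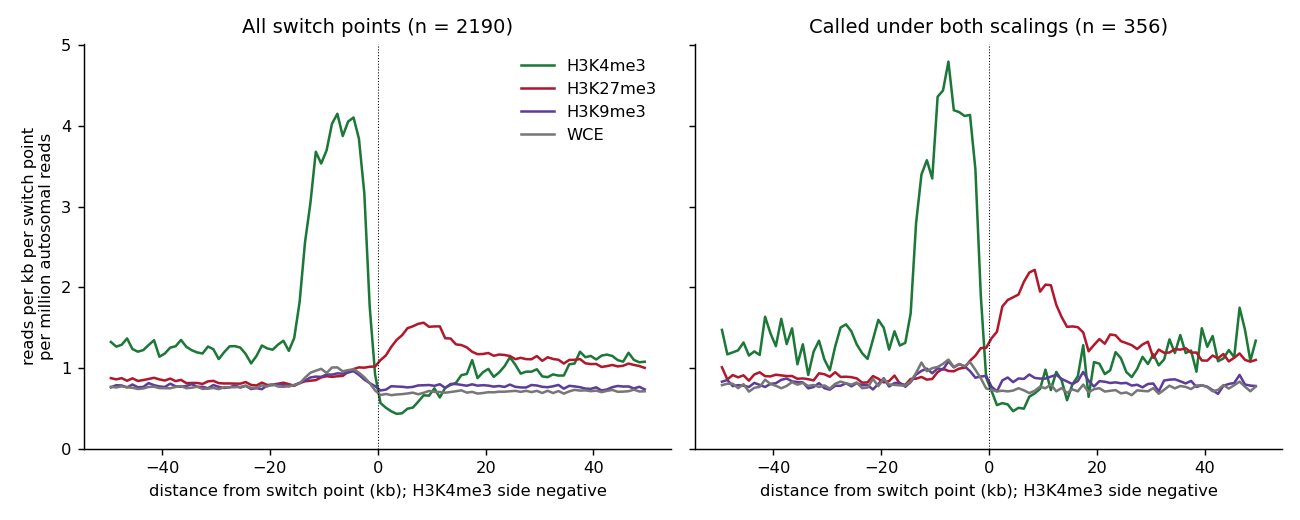
Mean read density of the 4 libraries (vertical, reads per kb per switch point, per 1000000 autosomal reads) by distance from the switch point (horizontal, kb), for all 2190 switch points (left) and for the 356 whose tiles were called under both scales (right). H3K4me3 is high before the middle and H3K27me3 after it, both with a slope that averages intervals of 0 to 20 kb, and WCE and H3K9me3 reach at most 1.11.

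The libraries left out of the calls differed between the sides as well. WCE had a median of 15 reads in the 2062 tiles on the H3K4me3 side and 8 in the 2002 tiles on the H3K27me3 side. H3K9me3 had medians of 9 and 6. Relative to WCE, H3K9me3 was 0.895 (0.879 to 0.910) on the H3K4me3 side and 1.18 (1.15 to 1.21) on the H3K27me3 side. These values were close to those of called tiles away from switch points, where H3K9me3 was 0.869 times WCE in H3K4me3-higher tiles and 1.19 times in H3K27me3-higher tiles. The H3K4me3 side of switch points differed from other H3K4me3-higher tiles in its H3K27me3 level, which was 0.855 times WCE (0.842 to 0.869) against 0.688 (0.683 to 0.693). No test between libraries was made, and the intervals leave out differences between libraries.

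On the background scale both called tiles stayed called at 356 of the 2190 switch points (16.3%). The H3K27me3 tile was the one lost, since no H3K4me3-higher tile was lost on that scale. Both sides were also set against WCE, by the totals. The H3K4me3 tile was at least 2-fold above WCE at 97.4% of switch points, the H3K27me3 tile at 76.2%, and both at 1628 (74.3%). At 19 switch points the H3K27me3 tile was at or below WCE. Relative to WCE, the switch there was from H3K4me3 to low H3K4me3 and not to raised H3K27me3. Among the 356, the H3K27me3 tile was at least 2-fold above WCE at 92.1%, and H3K27me3 over these tiles was 3.76 times WCE (3.61 to 3.92). Staying called on that scale took a higher H3K27me3 share, so these values are raised by the choice of tiles.

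The largest switch points were ranked by the number of called tiles in the smaller of the blocks that met. The 20 named lay on 11 autosomes, and 9 of them lay on chromosome 11. That chromosome held 262 of all 2190 switch points and 47 of the 356 kept on the background scale. Across the 20 named, H3K27me3 was 0.543 to 1.15 times WCE in the H3K4me3 blocks and 1.33 to 7.70 times WCE in the H3K27me3 blocks. Both called tiles stayed called on the background scale at 7 of the 20.

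The largest lay on chromosome 9. An H3K27me3 block from 107208001 to 107392000 (33 called tiles of 46, 1179 H3K27me3, 270 H3K4me3 and 402 WCE reads) ended where an H3K4me3 block from 107392001 to 107496000 began (16 called tiles of 26, 1934 H3K4me3, 349 H3K27me3 and 432 WCE reads). H3K27me3 was 4.59-fold higher in the former (4.02 to 5.26) and H3K4me3 5.27-fold higher in the latter (4.70 to 5.92). Across the border, H3K4me3 went from 7 to 236 reads between adjoining tiles and H3K27me3 from 27 to 17. In read counts the larger change was in H3K4me3. WCE rose from 5 to 17 reads between the same tiles, so relative to WCE H3K27me3 fell more than its counts show. A single step in the H3K4me3 share, placed on a grid of 250 bp, fell at 107391751. The H3K27me3 tile at this border lost its call on the background scale (adjusted p 0.0127 by the totals and 0.320 on the background scale, exact binomial), while 14 of the 33 tiles of its block kept theirs.

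At the third to sixth switch points in rank, on chromosomes 11, 15, 6 and 2, the H3K27me3 level of the H3K27me3 block was 4.06 to 7.70 times WCE. On chromosome 15, an H3K27me3 block from 102724001 to 102808000 held 1183 H3K27me3, 180 H3K4me3 and 156 WCE reads, and H3K27me3 was 7.70 times WCE. The H3K4me3 block that adjoined it, from 102808001 to 102892000, held 1435 H3K4me3, 207 H3K27me3 and 294 WCE reads. The tiles on either side of the border held 10 and 189 H3K4me3 reads and 47 and 29 H3K27me3 reads, and both stayed called on the background scale. The step fell at 102809001, with a range by the same rule from 102808751 to 102809001.

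On chromosome 2, H3K27me3 from 74412001 to 74496000 (564 H3K27me3 and 100 H3K4me3 reads) met H3K4me3 from 74496001 to 74548000 (1365 H3K4me3 and 151 H3K27me3 reads). The tiles at the border held 7 and 125 H3K4me3 reads and 59 and 25 H3K27me3 reads. The step fell at 74498001, and no other grid position entered its range. Both tiles stayed called on the background scale. On chromosome 6 the order was reversed. H3K4me3 from 52088001 to 52152000 (1612 H3K4me3 and 171 H3K27me3 reads) gave way, after 4 kb, to H3K27me3 from 52156001 to 52256000 (1118 H3K27me3 and 251 H3K4me3 reads). There the range of the step, by the same rule, ran from 52151751 to 52157501. The H3K27me3 tile lost its call on the background scale (adjusted p 3.97e-05 by the totals and 0.0654 on the background scale, exact binomial).

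The switch on chromosome 11 at 96116001 was less steep. The H3K27me3 block from 95908001 to 96116000 held 1923 H3K27me3, 539 H3K4me3 and 431 WCE reads over 52 tiles, of which 35 were called, and the H3K4me3 block from 96116001 to 96172000 held 1492 H3K4me3, 169 H3K27me3 and 249 WCE reads. At the border the H3K27me3 tile still held 39 H3K4me3 reads beside 78 H3K27me3 reads, and the H3K4me3 tile 29 H3K27me3 beside 74 H3K4me3 reads. Both marks were above WCE in the former, which had 11 WCE reads. That tile lost its call on the background scale (adjusted p 0.00421 by the totals and 0.879 on the background scale, exact binomial), where 18 of the 35 tiles of its block kept theirs.

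**Figure D4:**
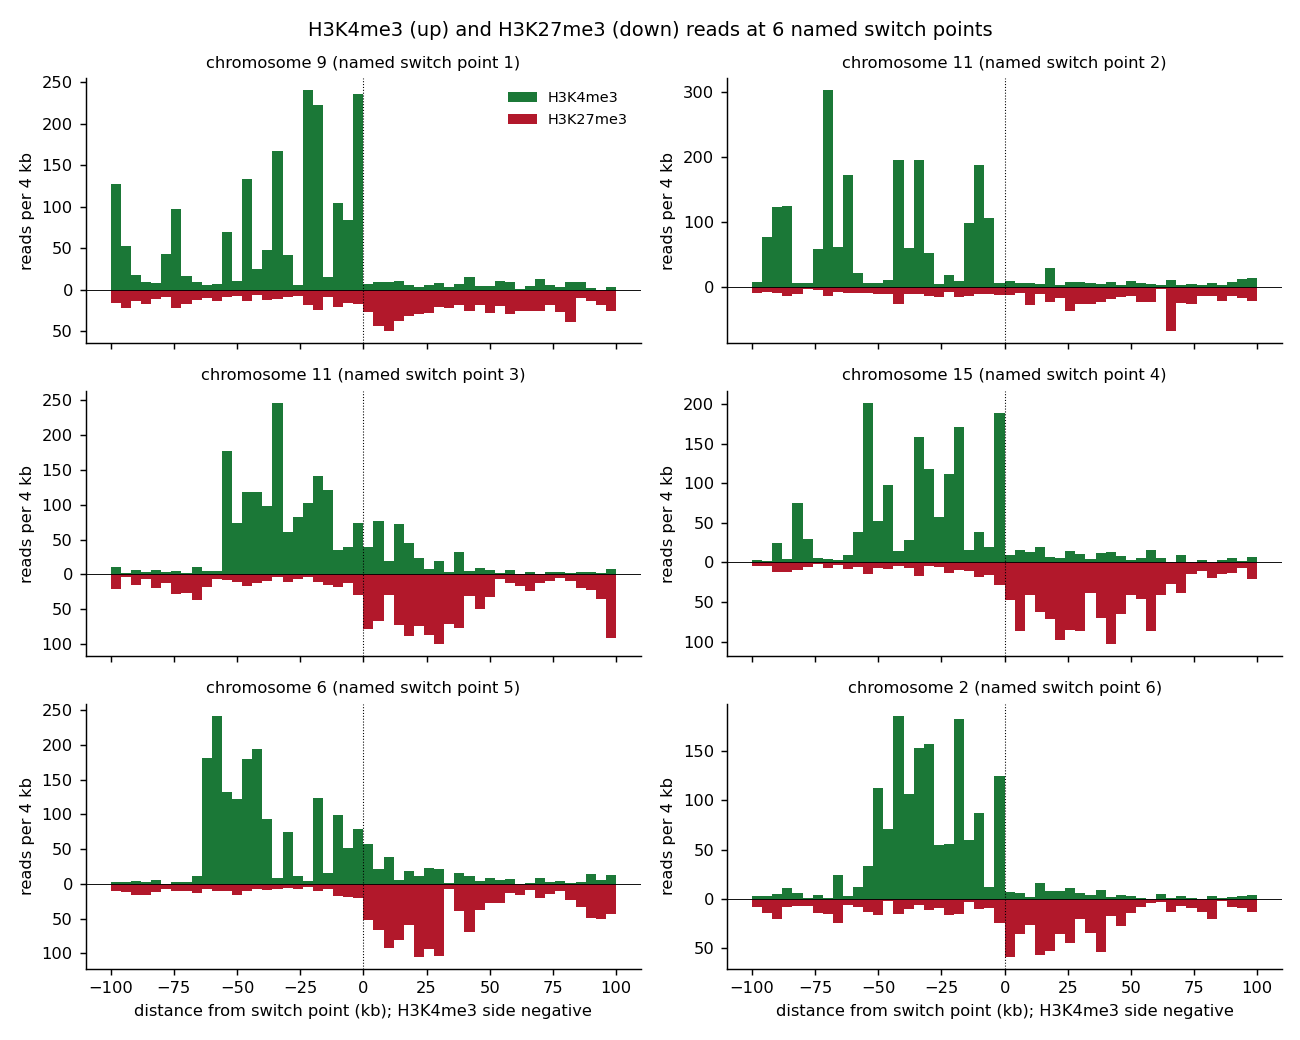
Reads per 4 kb tile of H3K4me3 (upward) and H3K27me3 (downward) by distance from the switch point (horizontal, kb), H3K4me3 side at negative distances, for the first 6 named switch points. H3K4me3 reads stand in spikes of unequal height, and H3K27me3 forms a lower, more even layer that is deepest at switch points 3, 4 and 5.

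Other named switch points joined blocks of differing depth. On chromosome 11, H3K4me3 from 68824001 to 68944000 (2095 H3K4me3 and 314 H3K27me3 reads) was followed, after 12 kb, by H3K27me3 from 68956001 to 69060000 (579 H3K27me3, 170 H3K4me3 and 213 WCE reads). H3K27me3 there was 2.76 times WCE and 3.58-fold higher than H3K4me3 (3.02 to 4.28). On the same chromosome, H3K4me3 from 58996001 to 59048000 adjoined H3K27me3 from 59048001 to 59108000, with 117 and 2 H3K4me3 reads and 13 and 19 H3K27me3 reads in the border tiles. On chromosome 7, an H3K27me3 block from 45032001 to 45060000 had H3K27me3 at 6.29 times WCE (341 and 55 reads) and lay 8 kb from an H3K4me3 block that started at 44956001 (597 H3K4me3 and 125 H3K27me3 reads). On chromosome 8, H3K27me3 from 87808001 to 87836000 (256 H3K27me3 and 63 WCE reads) lay 16 kb from H3K4me3 from 87852001 to 87884000 (1233 H3K4me3 and 193 WCE reads). Both of the latter switch points stayed called on the background scale.

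The shallowest of the 20 on the H3K27me3 side was on chromosome 11 from 120648001 to 120716000, with 220 H3K27me3, 88 H3K4me3 and 168 WCE reads. H3K27me3 was 1.33 times WCE there and H3K4me3 0.505 times. None of its 5 called tiles stayed called on the background scale. The weakest H3K4me3 side was on chromosome 11 from 117124001 to 117168000, with 408 H3K4me3, 164 H3K27me3 and 232 WCE reads (2.36-fold higher in H3K4me3, 1.97 to 2.85).

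By the autosomal totals, blocks of one mark were sometimes enclosed by the other, which was not recounted on the background scale. A switch point lay on both sides of 229 H3K4me3 blocks (2.79%) and of 372 H3K27me3 blocks (6.72%), and the median span of each kind was 4 kb. The enclosed H3K4me3 block with the most called tiles, 13, was the one on chromosome 11 from 96116001 described above, in which H3K4me3 was 8.39-fold higher (7.15 to 9.90). Next were chromosome 2 from 74496001 to 74548000 and chromosome 10 from 80696001 to 80836000, with 12 tiles each and H3K4me3 8.59-fold (7.26 to 10.2) and 2.9996-fold (2.72 to 3.31) higher. The enclosed H3K27me3 blocks included the 412 kb block on chromosome 8, in which H3K27me3 was 4.004-fold higher (3.73 to 4.30). Others lay on chromosome 19 from 44640001 to 44940000 (2546 H3K27me3, 531 H3K4me3 and 683 WCE reads) and on chromosome 17 from 25020001 to 25292000 (1653 H3K27me3, 442 H3K4me3 and 655 WCE reads).

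Switch points followed one another in chains, counted here, like the megabase counts below, by the autosomal totals alone. Of 1589 chains, 75.5% held 1 switch point, 265 held 2 and 125 held 3 or more. The longest, with 14 switch points among 15 blocks, covered 488 kb of chromosome 10 (80568001 to 81056000), with 32 H3K4me3-higher and 12 H3K27me3-higher tiles. It was singled out after its values were seen. Of the 103 switch points of chromosome 10, 14 kept both calls on the background scale, where chains were not recounted. The next covered 300 kb of chromosome 8 (73536001 to 73836000) with 10 switch points. It held 25 H3K4me3-higher and 8 H3K27me3-higher tiles. By megabase, the most switch points, 17, lay on chromosome 8 from 73000001 to 74000000 (46 H3K4me3-higher and 23 H3K27me3-higher tiles) and on chromosome 10 from 80000001 to 81000000 (56 and 15 tiles). Chromosome 11 from 98000001 to 99000000 had 13, with 35 and 44 tiles. Of 2472 regions of 1 Mb, 67.2% had no switch point, and the 5% of regions with the most held 41.3% of them.

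Autosomes differed in how often the marks alternated. Chromosome 11 had 262 switch points, 235 per 100 Mb of tested sequence, and chromosome 19 had 216 per 100 Mb. Chromosome 3 had 33.0 and chromosome 13 had 42.0 per 100 Mb. Among switch points kept on the background scale the order at both ends was reversed, with 45.4 per 100 Mb on chromosome 19, 42.1 on chromosome 11, 6.60 on chromosome 3 and 4.88 on chromosome 13. Chromosome 19 had 58.6 H3K27me3-higher tiles per 1000 and chromosome 11 had 49.4, against 8.18 on chromosome 3 and 9.48 on chromosome 16. The range was narrower for H3K4me3-higher tiles, from 18.3 per 1000 on chromosome 1 to 44.3 on chromosome 11. Read density moved with these counts, with 2012 WCE reads per tested Mb on chromosome 19, 1710 on chromosome 11 and 1056 on chromosome 3. Its part in the counts was not tested. Over whole chromosomes the H3K4me3 to H3K27me3 ratio stayed between 0.904 (0.896 to 0.911) on chromosome 14 and 1.10 (1.09 to 1.11) on chromosome 11.

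**Figure D5:**
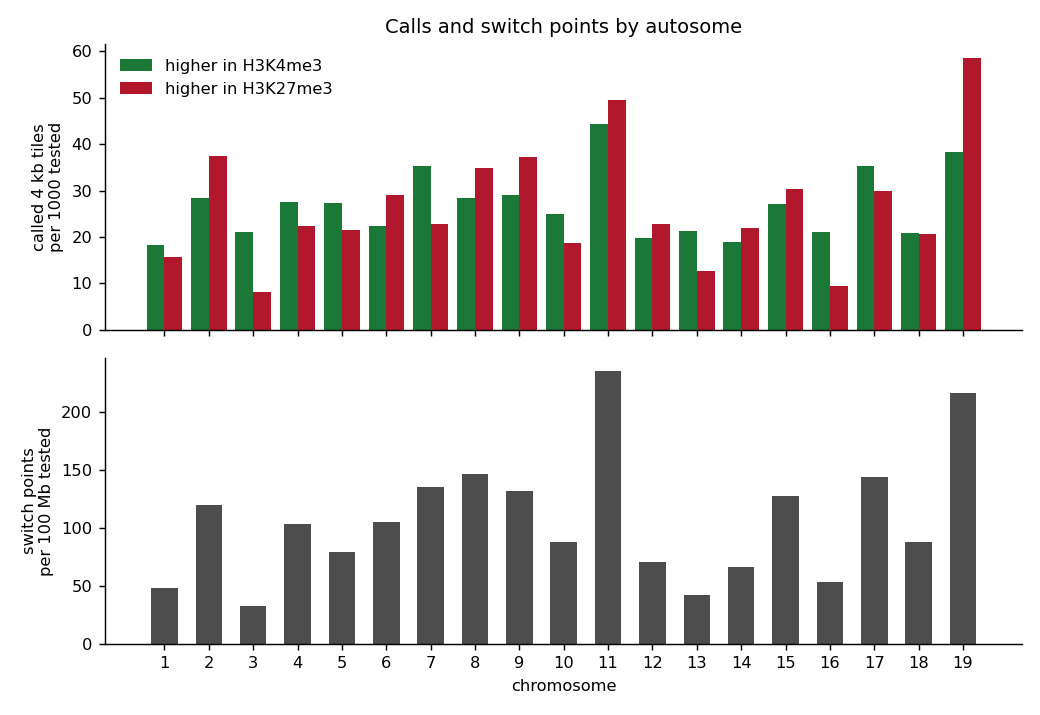
Called 4 kb tiles per 1000 tested (top) and switch points per 100 Mb of tested sequence (bottom) by autosome. Chromosomes 11 and 19 have the most switch points, 235 and 216 per 100 Mb, and chromosome 3 the fewest, 33.0, by the autosomal totals; kept on the background scale, chromosome 19 (45.4) stands above chromosome 11 (42.1) and chromosome 13 (4.88) below chromosome 3 (6.60).

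Tiles of 100 kb had a median of 175 reads of the pair, against 6 in tested 4 kb tiles. Of 23796 tiles, 3661 (15.4%) were higher in H3K4me3 and 8235 (34.6%) in H3K27me3. The directions were built differently. Only 41 H3K4me3-higher tiles (1.12%) held no H3K4me3-higher 4 kb tile, and the median over all 3661 was 2. Of the H3K27me3-higher tiles, 5511 (66.9%) held no H3K27me3-higher 4 kb tile. In the H3K27me3-higher tiles H3K27me3 was 1.29 times WCE (1.28 to 1.29) and H3K4me3 0.564 times (0.562 to 0.566). On the background scale 6240 were higher in H3K4me3 and 2695 in H3K27me3.

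The longest H3K27me3-higher run of 100 kb tiles covered 1600 kb of chromosome 19 (18800001 to 20400000), with 1745 H3K27me3, 731 H3K4me3 and 1802 WCE reads. H3K27me3 there was 0.983 times WCE, H3K4me3 0.391 times and H3K9me3 0.737 times. The run was thus low in H3K4me3 relative to WCE, and its H3K27me3 level was not above WCE. In 100 kb tiles called in neither direction, H3K27me3 was 0.869 times, H3K4me3 0.829 times and H3K9me3 1.01 times WCE. Against those tiles, the run was higher in H3K27me3 over WCE and lower in H3K4me3 and H3K9me3 over WCE. A run of 1300 kb on chromosome 6 (125500001 to 126800000) had H3K27me3 raised to 1.48 times WCE. H3K4me3 was 0.640 times and H3K9me3 1.06 times WCE in it, and it held 32 H3K27me3-higher 4 kb tiles. The longest H3K4me3-higher run covered 1400 kb of chromosome 7 (126400001 to 127800000), with 6660 H3K4me3 and 2611 H3K27me3 reads and 59 H3K4me3-higher 4 kb tiles. Ranked with 1 read added, the most one-sided H3K27me3 tile of 100 kb was on chromosome 16 from 91100001 to 91200000, with 377 H3K27me3, 54 H3K4me3 and 147 WCE reads (7.35-fold, 5.51 to 9.96). By the same ranking the first H3K4me3 tile, on chromosome 4 from 88400001 to 88500000, had 297 H3K4me3, 40 H3K27me3 and 137 WCE reads (7.06-fold, 5.06 to 10.1).

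Adjoining 100 kb tiles switched mark at 1825 of the 7286 pairs of adjoining called tiles. There were 1244 such places on the background scale, and 175 from the reads outside called 4 kb tiles scaled by their own totals. The median step in log2 ratio was 2.25, with a range from 1.21 to 4.81. Of these boundaries, 163 (8.93%) had a 4 kb switch point within 20 kb. The share at other positions was not counted. On chromosome 15 the boundary at 102800001 separated 1136 H3K27me3 and 180 H3K4me3 reads from 1489 H3K4me3 and 365 H3K27me3 reads, a log2 step of 4.68. It lay near the switch point of this chromosome described above, whose called tiles met at 102808001. On chromosome 11 the boundary at 84600001 separated 489 H3K27me3 and 98 H3K4me3 reads from 922 H3K4me3 and 225 H3K27me3 reads, a step of 4.34. The largest step, 4.81 on chromosome 17 at 12900001, rested on a right-hand tile with 11 H3K27me3 and 2 H3K4me3 reads, which lost its call on the background scale. On that scale both tiles stayed called at 8 of the 10 named boundaries.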

How the data were processed

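Libraries of H3K4me3, H3K27me3, H3K9me3 and WCE from MDER 10T cells, 1 each, were used. The deposited files list 1 signed genome position per read, aligned to mm8 with Bowtie (options e 70, k 2, m 2, n 2 and l 36, per the file headers; version not given in the sources used here). Whether positions count from 0 or 1 is not stated. Chromatin was sonicated to about 500 bp and amplified for 18 cycles, per the labels' protocols. Only reads with 1 reported position on the 19 autosomes were used, after removal of repeats (5.93% of H3K4me3 and 6.85% of H3K27me3 reads); annotation of mm8 was not used here. The tile test, in numpy 2.4.6 and scipy 1.17.1 under Python 3.11.15 with figures in matplotlib 3.10.9, doubled the smaller one-sided exact binomial p, adjusted by Benjamini-Hochberg over all tiles with at least 1 read of the pair. It was checked on simulated data in which unchanged tiles sat at the share of the totals, so that check does not bear on the scaling. Totals set 1.05 H3K4me3 reads per H3K27me3 read as equal.

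Named were the 10 called 4 kb tiles per direction with the largest ratio (1 read added) and at least 20 reads of the higher mark. Named too were the 20 switch points with the largest smaller block (at least 2 called tiles each), and, at 100 kb, the 5 longest runs and the 5 tiles with the largest ratio (at least 100 reads of the pair) per direction, and the 10 largest steps. The 5 megabases with the most switch points were also named. Members, rules and lists were chosen with earlier results of these data known. WCE conditions on switch points, step positions, chains, enclosed blocks, very read-rich tiles, and 100 kb tiles without called 4 kb tiles were added after seeing the data. Alternatives changed repeated reads, shift, scaling, thresholds, tile size and phase, low-count filter, strand and the largest interval.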

Additional observations from a re-analysis of the deposited data

Results flagged for a closer look

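Reads with 2 reported positions, which were outside the comparison, gave 678 tiles of 4 kb higher in H3K4me3 and 94 higher in H3K27me3, of 132894 tested, and were listed because these signals exceeded WCE. In the former H3K4me3 was 8.06 times WCE (7.82 to 8.31) and in the latter H3K27me3 was 2.38 times WCE (2.25 to 2.51). Of the 678, 377 were also H3K4me3-higher from reads with 1 position, and of the 94, 5 were also H3K27me3-higher. None was called in the opposite direction. The place of origin of a read with 2 positions cannot be told.

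The X chromosome, also outside the comparison, had 377 H3K4me3-higher tiles among 25189 tested, in which H3K4me3 was 7.18 times WCE (6.91 to 7.46). It had 26 H3K27me3-higher tiles, 1.03 per 1000 against 8.18 to 58.6 on the autosomes, and 8 switch points. The H3K4me3 to H3K27me3 ratio over the chromosome was 1.06 (1.05 to 1.07). Read depth there was low, since 3180271 of the 3254911 WCE reads with 1 position, repeats included, were autosomal. On the autosomes a 4 kb tile needed at least 10 reads of the pair for a call. The part of read depth in the X chromosome counts was not tested. The tiles were adjusted among themselves, and the difference from the autosomes was not tested.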

How the results depend on the processing

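No paired analysis was possible because each group holds 1 library, and no library could be left out. The count of H3K4me3-higher 4 kb tiles stayed within 1.5 times of 14087 under the alternatives run (11266 to 17940). With other tile sizes it was 16440 for 2 kb and 12320 for 8 kb tiles. Here and below, counts for other tile sizes are of tiles of another length, so they do not compare the sequence covered. The other counts did not stay within 1.5 times of their main values, and are given in the order H3K27me3-higher 4 kb tiles, switch points at 4 kb. They were 4752 and 932 with scaling by the median 100 kb ratio, 3081 and 643 on the background scale, 7109 and 1147 at an adjusted p under 0.01, and 5402 and 834 with 2 kb tiles. They were 22638 and 3549 with 8 kb tiles, 23550 and 3701 with at least 10 reads of the pair, 2597 and 448 with forward strand reads alone and 2624 and 455 with reverse strand reads alone, where fewer reads enter. Switch points numbered 310 with no uncalled tile between, 4736 with up to 100 kb between and 1628 where both tiles were at least 2-fold above WCE. At 100 kb, H3K4me3-higher tiles, H3K27me3-higher tiles and switch points were 2225, 5068 and 644 at a fold of at least 2, 6445, 14219 and 3161 with 50 kb tiles, and 1737, 4265 and 881 with 200 kb tiles. From reads outside called 4 kb tiles, scaled by their own totals, they were 1770, 2365 and 175, and 2094 of the 8235 H3K27me3-higher tiles stayed called. H3K4me3-higher 100 kb tiles numbered 6240 on the background scale, and H3K27me3-higher ones 3783 by the median ratio and 2695 on the background scale. Switch points at 100 kb were 2835 with no fold minimum and 3404 with up to 500 kb between. Calls were only recounted under each setting, and the causes of the changes were not tested. All 105 ratios of named tiles, blocks (called tiles only), runs and regions kept their direction under the 7 alternatives that recomputed them, which their choice for large ratios favours. Under the scalings by the median 100 kb ratio and by uncalled tiles, 45 and 29 of them stayed within their intervals. A 4 kb tile needed at least 10 reads of the pair for a call, and 65.1% of tested tiles had fewer, so lower differences were not detectable there at this depth.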
